A study of Mus musculus with 6 samples.

Results

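The 10 genes described here encode the surface antigens by which mouse hematopoietic stem and progenitor cells are sorted: Kit, Ly6a, Cd34, Fcgr3, Fcgr2b, Flt3, Slamf1, Cd48, Procr and Cd93. They were taken by symbol from the deposited expression table, all 10 were found among its 16440 genes, and all 10 passed the filter on low values that 14595 genes passed. The RNA of normal myeloid progenitors (MPs) was compared with that of leukemic c-Kit+ progenitors from a mouse model of acute promyelocytic leukemia (APL), to ask where the leukemic cells lie on the axes that normal progenitor gates use. Each group had 3 libraries, described by the submitters as biological replicates. Whether each came from a separate mouse is not stated, so the p-values measure the spread between these libraries.

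Normal MPs were bone marrow cells of FVB N/J mice sorted as lineage negative, Sca-1 negative and c-Kit positive, a gate that holds several kinds of myeloid progenitor together. The APL cells, labelled with the same strain, arose in hMRP8-PML/RARα transgenic mice, in which the human MRP8 promoter, active in myeloid cells, drives the PML/RARα fusion. They had been marked with GFP by the retroviral vector MigR1, expanded by transplantation into syngeneic mice, and sorted as GFP positive and c-Kit positive. The labels name no drug treatment for either group. The total of estimated fragments, once the scaling between libraries was undone, was 23605999, 22976881 and 26932357 for the normal MPs and 20608715, 28382785 and 20911902 for the APL cells, in the order of the library numbers that all values below follow.

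Blood stem cells carry c-Kit and Sca-1 together with CD150 and EPCR, and lack CD48. As they become multipotent progenitors they gain FLT3, CD34 and CD48, and as these commit to the myeloid lineages they lose Sca-1. Within the Lin−Sca-1−c-Kit+ gate, common myeloid progenitors (CMPs) are CD34 positive with low Fcγ receptors, granulocyte and monocyte progenitors (GMPs) are CD34 positive with high Fcγ receptors, and megakaryocyte and erythroid progenitors (MEPs) are low for both. The values below are levels of RNA, and a gate reads surface protein.

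Levels are given as FPKM, fragments scaled to transcript length and library size, which permits comparison between genes. The test compared log2(scaled fragments + 1) between the groups with limma across all genes, where scaled fragments are the deposited estimates after scaling between libraries. A gene was called at a Benjamini-Hochberg adjusted p under 0.05 and a fold change over 1.5. Of the 10 sorting markers, 6 were lower in APL cells (Kit, Cd34, Flt3, Slamf1, Cd48 and Procr), against 24.4% of all genes tested. The 3 that were higher were Ly6a, Fcgr3 and Fcgr2b, against 21.7% of all genes tested. Cd93 alone was not called. Kit and Ly6a are in these counts although the sorts used c-Kit and Sca-1, so their values check the gates and are not findings. Those shares of all genes tested are also the background for the counts of called genes in every list below. The 3 values of each group did not overlap for 9 of the 10 genes, a separation found for 70.9% of all genes tested. With 3 libraries against 3, a two-sided exact permutation test of 1 gene cannot go below 0.1, and it gave 0.1 for those 9 genes and 1 for Cd93. In these bulk libraries, fewer cells carrying a transcript and less RNA per cell cannot be told apart.

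**Figure D1:**
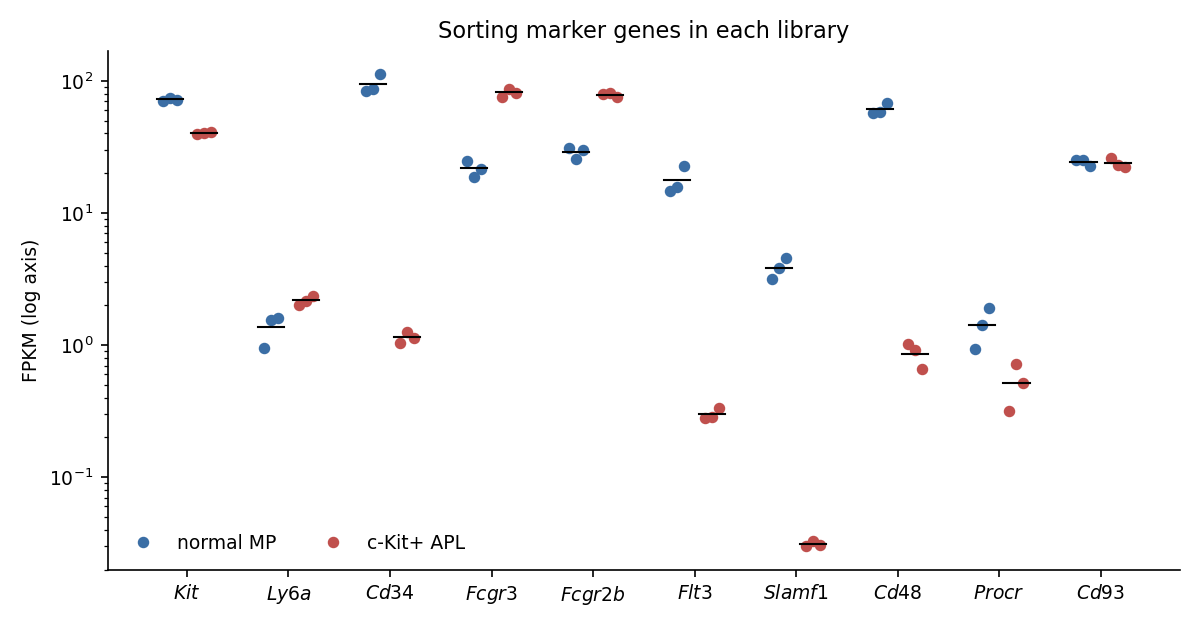
FPKM (log axis) of the 10 sorting marker genes in each library, with 3 points for normal MPs (blue) and 3 for c-Kit+ APL cells (red) and a black line at each group mean. Cd34 falls from a mean of 94.5 to 1.15 FPKM, Fcgr3 rises from 21.7 to 81.8 FPKM, and the points of Cd93 overlap.

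Kit and Ly6a were read first, because the sorts used them. Kit encodes the receptor tyrosine kinase for stem cell factor, and c-Kit was part of both gates. The Kit level was 70.6, 74.5 and 72.2 FPKM in the MP libraries and 39.6, 40.7 and 40.7 FPKM in the APL libraries. Both groups were thus far above the middle of the transcriptome: Kit exceeded a median of 93.9% of the listed genes in MPs and 87.6% in APL cells. The groups did not overlap, and the level in APL cells was 1.799-fold lower (log2 fold change −0.85, SE 0.07, 95% interval −1.0 to −0.69, limma adjusted p = 5.9e-06). Both populations had been gated on c-Kit, and the part of the gates in this difference was not tested. The gene lies at chr5:75574986-75656721 (GRCm38, as are the other positions of genes given here).

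Ly6a (chr15:74994876-74998031) encodes Sca-1, the antigen that the MP gate excluded and the APL gate did not use. Its level was 0.955, 1.55 and 1.59 FPKM in MPs and 2.02, 2.17 and 2.37 FPKM in APL cells. All 6 libraries were low, and the groups came close without overlapping. The difference of 0.68 on the log2 scale (SE 0.26, 95% interval 0.09 to 1.27, limma adjusted p = 0.043) passed narrowly. It lost the call in 8 of 19 alternative analyses, among them those without MP library 1 (0.45, adjusted p = 0.13) and without APL library 1, 2 or 3 (0.76, 0.70 and 0.60, adjusted p between 0.063 and 0.13). The genes tested on chromosome 15 had a median log2 fold change of 0.46, against −0.10 for all genes tested, and relative to that median the Ly6a difference was 0.22. The part of the MP gate, which excluded Sca-1, in the Ly6a difference was not tested.

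The LY6 family around Ly6a encodes small lipid-anchored surface proteins. Of its 6 other members tested, 5 were higher in APL cells and none was lower, with a median log2 fold change of 2.81. All 6 lie on chromosome 15. Ly6c2, one of the genes for the myeloid antigen Ly6C, reached 945, 790 and 884 FPKM in MPs and 10845, 10915 and 10600 FPKM in APL cells (log2 fold change 3.61, SE 0.13, adjusted p = 4.8e-08). Ly6c1 (3.18), Ly6i (2.45) and Ly6k (6.37) rose as well, while Ly6e had a log2 fold change of 0.45 and was not called. Ly6c1 and Ly6c2 are 97.7% identical in coding sequence, and 31.9% of the 50-base windows of Ly6c1 occur in Ly6c2, so the rise of Ly6c1 is uncertain as one separate from that of Ly6c2. The transcript of Ly6a shares 4.42% of its 50-base windows with Ly6c2 or Ly6i, the longest runs being 80 bases with Ly6i and 52 bases with Ly6c2. The run common to Ly6a and Ly6c2 is shown because Ly6c2 stood at 511 to 989 times the Ly6a level in the MP libraries and 4481 to 5376 times in the APL libraries, so that a small share of misassigned fragments could matter. How much of the Ly6a level came from such fragments was not tested.
Ly6a and Ly6c2, shared run: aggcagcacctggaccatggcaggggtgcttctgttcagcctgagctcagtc

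Among the stem and progenitor antigens, the change in Cd34 was one of the deepest in the table. Cd34 encodes a sialomucin of early progenitors and endothelium, whose protein divides CMPs and GMPs from MEPs. Its level was 83.9, 87.4 and 112 FPKM in MPs and 1.04, 1.26 and 1.14 FPKM in APL cells. Cd34 was the most abundant of the 10 markers in every MP library, and each APL value was near 1 FPKM. The level was 79.5-fold lower in APL cells (95% interval 65.0 to 97.3, log2 fold change −6.31, SE 0.13, limma adjusted p = 5.6e-09). Only 1.10% of the genes tested had a lower log2 fold change. Cd34 moved from a median of the 95.1st percentile of the listed genes in MPs to the 37.2nd in APL cells. At its position (chr1:194938820-194976959) the table lists a second gene over the same locus, Gm16897, with 48.7, 47.6 and 42.4 scaled fragments in MPs and 0 in each APL library, small beside the mean of 6684 for Cd34 in MPs.

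The low-affinity Fcγ receptors moved the other way. Fcgr3 (chr1:171051168-171059403) encodes the activating receptor CD16, and Fcgr2b (chr1:170960558-170976071) the inhibitory receptor CD32, and the antibody used in progenitor sorting binds both. The Fcgr3 level was 24.95, 18.8 and 21.5 FPKM in MPs and 76.1, 87.6 and 81.7 FPKM in APL cells. The Fcgr2b level was 31.2, 25.8 and 30.1 FPKM in MPs and 79.2, 81.7 and 75.7 FPKM in APL cells. Every APL value of either gene was far above the highest MP value. Fcgr3 was 3.70-fold higher (log2 fold change 1.89, SE 0.12, adjusted p = 1.2e-06) and Fcgr2b 2.66-fold higher (log2 fold change 1.41, SE 0.09, adjusted p = 1.1e-06). The ratio of Fcgr3 to Fcgr2b was 0.799, 0.729 and 0.715 in MPs and 0.960, 1.07 and 1.08 in APL cells, again without overlap.

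These genes share coding sequence (83.7% identity over the aligned bases), and the fourth exon of each, which encodes part of the extracellular region, shows how alike they are. The exons are printed because fragments from them can be told apart at few bases only. Both are read from the minus strand of NCBIM37, Fcgr3 at chr1:172984070-172984324 and Fcgr2b at chr1:172896577-172896831. They differ at 5 of 255 positions (98.0% identical), which are the capitals.
Fcgr3 exon 4: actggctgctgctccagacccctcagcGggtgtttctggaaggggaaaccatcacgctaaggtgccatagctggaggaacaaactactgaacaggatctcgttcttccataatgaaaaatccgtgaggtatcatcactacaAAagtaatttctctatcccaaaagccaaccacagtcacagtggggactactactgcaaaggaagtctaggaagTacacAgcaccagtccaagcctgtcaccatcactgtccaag
Fcgr2b exon 4: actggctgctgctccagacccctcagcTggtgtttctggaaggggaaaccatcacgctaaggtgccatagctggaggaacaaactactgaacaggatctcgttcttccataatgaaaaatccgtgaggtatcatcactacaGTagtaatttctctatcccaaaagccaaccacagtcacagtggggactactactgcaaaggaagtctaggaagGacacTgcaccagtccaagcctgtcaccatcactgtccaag
Of the 50-base windows of each transcript, 12.8% of those of Fcgr3 and 10.7% of those of Fcgr2b occur in the other gene, so the split of fragments between the genes is less certain than the sum of their fragments. The transcripts of Kit, Cd34, Flt3, Slamf1, Cd48 and Procr share no such window with another gene.

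Added together, Fcgr3 and Fcgr2b had 2212, 1728 and 2034 scaled fragments in MPs and 5827, 6344 and 6094 in APL cells, a sum that does not depend on that split. The groups did not overlap. In FPKM, where each gene is divided by its own length, the sum was 56.2, 44.5 and 51.5 in MPs and 155, 169 and 157 in APL cells. Set against Cd34, the FPKM sum came to 0.670, 0.510 and 0.459 in the MP libraries and to 149, 134 and 138 in the APL libraries. Relative to Kit, Cd34 was 1.305 ± 0.216 in MPs and 0.0285 ± 0.0024 in APL cells, and the receptor sum was 0.702 ± 0.0995 in MPs and 3.98 ± 0.159 in APL cells (SD, n = 3 in each). On the gate axes the APL cells therefore lay on the high side of the MPs for the Fcγ receptors, as GMPs do, and on the low side for Cd34, as MEPs do. No sorted CMP, GMP or MEP library was analysed here, so no threshold between gates can be drawn in these units.

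**Figure D2:**
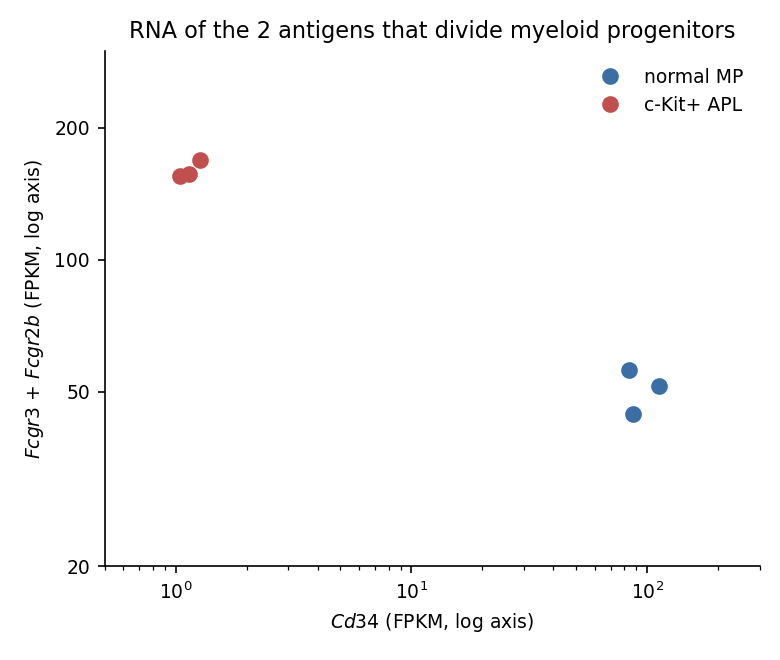
The summed FPKM of Fcgr3 and Fcgr2b (log axis) against the FPKM of Cd34 (log axis), with 1 point for each of the 3 normal MP (blue) and 3 c-Kit+ APL (red) libraries. The MP libraries lie at 83.9 to 112 FPKM of Cd34 and 44.5 to 56.2 FPKM of the receptor sum, and the APL libraries at 1.04 to 1.26 and 155 to 169 FPKM.

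Cells other than progenitors also carry Fcγ receptors. Mature neutrophil markers were mixed: of 9 tested, 3 were higher, 2 lower and 4 not called, against 21.7% higher and 24.4% lower of all genes tested. Their sum was 18597, 11952 and 15543 FPKM in MPs and 57194, 59817 and 45923 FPKM in APL cells. S100a8, a calcium-binding protein of granulocytes and the most abundant of them, was higher (log2 fold change 2.17), while the secondary granule genes Ltf (−1.42) and Ngp (−1.46) were lower. Of 8 macrophage markers tested, 4 were higher and 2 lower, with Cd68, a lysosomal protein, at 6.42, 5.44 and 7.62 FPKM in MPs and 28.6, 30.2 and 28.7 FPKM in APL cells. Emr1, which encodes F4/80, was higher by 2.79 on the log2 scale, and the complement gene C1qa stayed under 1 FPKM in all 6 libraries. The macrophage sum was 17.2, 14.0 and 18.4 FPKM in MPs and 51.5, 52.6 and 51.3 FPKM in APL cells. Both groups had been sorted as c-Kit positive, and the MPs also as lineage negative. The part of mature neutrophils and macrophages in the Fcγ receptor levels was not tested.

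In the wider Fc receptor family the calls were near the shares of all genes tested, 21.7% higher and 24.4% lower. Of 7 other members tested, 1 was higher, 2 were lower and 4 were not called, with a median log2 fold change of −0.10. The higher one was Fcer1g, the signalling chain that CD16 needs at the surface, at 72.6, 55.5 and 70.3 FPKM in MPs and 140, 155 and 138 FPKM in APL cells (log2 fold change 1.09, SE 0.12, adjusted p = 4.9e-05). Ms4a2, the β chain of the IgE receptor of mast cells and basophils, was lower (−1.85, SE 0.20). With quantile normalization, 3 of the 7 members were higher and 1 was lower. Without APL library 3, 2 were higher. Fcgr4, which neighbours Fcgr3, had 1.20, 0.681 and 0.922 FPKM in MPs and 1.09, 0.711 and 0.794 FPKM in APL cells, and the groups overlapped. Mast cells carry c-Kit and basophils carry Fc receptors, and of 8 markers of these cells 6 were lower, 1 was higher and 1 was not called. Their sum was 101, 82.3 and 101 FPKM in MPs and 52.3, 60.3 and 61.0 FPKM in APL cells. The mast cell protease gene Cpa3 was lower (−5.48), and the basophil protease gene Mcpt8 was higher (1.13).

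Flt3 (chr5:147330741-147400489) encodes the receptor tyrosine kinase that marks multipotent and lymphoid-primed progenitors. Its level was 14.6, 15.7 and 22.8 FPKM in MPs and 0.279, 0.285 and 0.336 FPKM in APL cells. The groups were far apart, with a 56.7-fold lower level in APL cells (95% interval 42.6 to 75.5, log2 fold change −5.83, SE 0.18, limma adjusted p = 2.8e-08). The APL values still rested on a mean of 31.9 scaled fragments. Kit and Flt3 are related kinases, and among 16 genes of their ligands and signalling partners 6 were higher in APL cells, none was lower and 10 were not called (median log2 fold change 0.12). The 4 largest of these increases were in the kinases Lyn (1.16) and Fes (0.92), the adaptor Gab2 (0.91) and the phosphatase Ptpn6 (0.72).

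The SLAM family antigens are used to tell stem cells from progenitors. Slamf1 (chr1:171767131-171801184) encodes CD150, found on stem cells and on megakaryocyte and erythroid progenitors. Its level was 3.19, 3.80 and 4.53 FPKM in MPs and 0.030, 0.033 and 0.030 FPKM in APL cells. Those APL values correspond to 2, 3 and 2 fragments, so the size of the fold is uncertain. The mean of scaled fragments in MPs was 93.1 times a floor of 3 fragments per APL library, a bound that leaves out the spread between libraries. In the fit, Slamf1 was 87.3-fold lower in APL cells (95% interval 61.3 to 124, limma adjusted p = 4.7e-08). Cd48 (chr1:171682054-171705257) encodes a SLAM family ligand gained when stem cells commit. Its level was 57.6, 58.6 and 67.6 FPKM in MPs and 1.01, 0.924 and 0.655 FPKM in APL cells. The Cd48 level was thus 69.6-fold lower in APL cells (95% interval 54.2 to 89.5, log2 fold change −6.12, SE 0.16, adjusted p = 1.3e-08), a change in the same direction as that of Slamf1, although the antigens mark opposite sides of the stem cell gate.

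Other genes of the SLAM family and its adaptors moved both ways. Of 7 tested, 5 were lower and 2 higher in APL cells, with a median log2 fold change of −2.58, or −1.33 when the 3 genes at the floor in APL cells were set to their bounds. Ly9, which encodes CD229, had 8.28, 8.04 and 9.03 FPKM in MPs and 0.209, 0.152 and 0.329 FPKM in APL cells (−5.21, SE 0.26). Cd244, the receptor for CD48, was lower by −4.11. Cd84 had 13.8, 12.98 and 14.9 FPKM in MPs and 49.4, 49.0 and 45.1 FPKM in APL cells (1.78, SE 0.07), and Slamf9 was higher by 2.06.

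Procr and Cd93 complete the set. Procr (chr2:155751216-155755478) encodes EPCR, the endothelial protein C receptor, which marks stem cells in the marrow. Its level was 0.931, 1.41 and 1.92 FPKM in MPs and 0.315, 0.716 and 0.518 FPKM in APL cells. The values were low and scattered, and did not overlap. Procr was 2.68-fold lower in APL cells with a wide interval (log2 fold change −1.42, SE 0.37, 95% interval −2.26 to −0.58, limma adjusted p = 0.0077). Of 3 other protein C pathway genes tested, the thrombin receptor F2r was lower (−6.42), and Thbd, which encodes thrombomodulin (1.81), and Pros1, which encodes protein S (1.83), were higher.

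Cd93 (chr2:148436650-148443535) encodes AA4.1, a C-type lectin of early progenitors, and the study used its antibody to sort subsets of APL cells. The Cd93 level was 25.4, 25.4 and 22.7 FPKM in MPs and 26.1, 23.2 and 22.1 FPKM in APL cells. The groups overlapped, and the log2 fold change was −0.02 (SE 0.08, limma adjusted p = 0.82). Its 95% interval, −0.22 to 0.17, lies inside the 1.5-fold threshold on both sides.

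**Figure D3:**
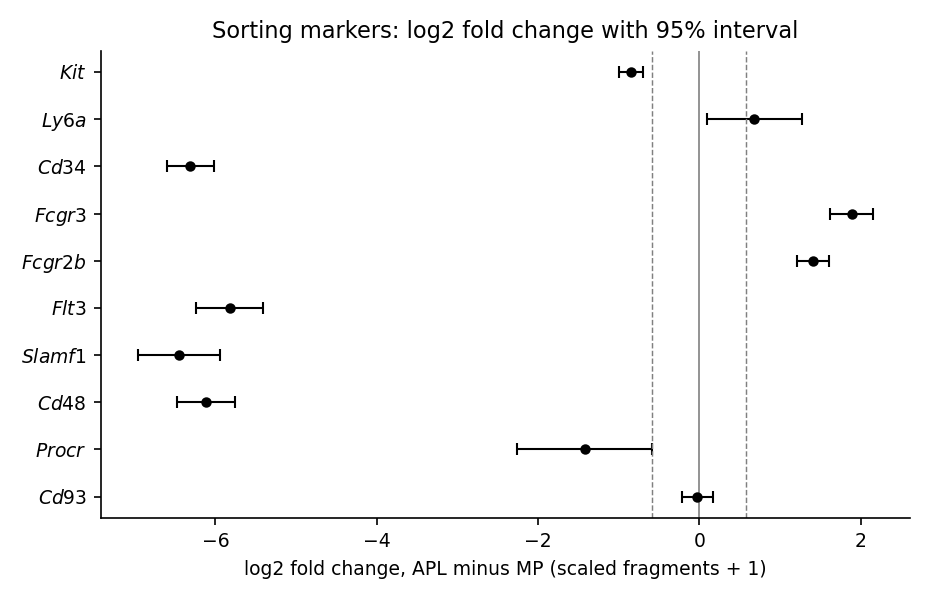
Log2 fold change of each sorting marker gene, APL minus MP, on the log2(scaled fragments + 1) scale, with its 95% interval from limma; dashed lines mark the 1.5-fold threshold and 3 libraries entered in each group. Cd34, Flt3, Slamf1 and Cd48 lie between −5.83 and −6.45, where the Slamf1 point is a fitted value of a gene at the floor in APL cells, and Cd93 spans 0.

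The order of the levels changed with these shifts. In MPs it ran Cd34, Kit, Cd48, Fcgr2b, Cd93, Fcgr3, Flt3, Slamf1, Procr and Ly6a, from mean levels of 94.5 to 1.36 FPKM. The values of Cd93 and Fcgr3, of Fcgr3 and Flt3, and of Procr and Ly6a overlapped, so these neighbours cannot be ranked. In APL cells it ran Fcgr3, Fcgr2b, Kit, Cd93, Ly6a, Cd34, Cd48, Procr, Flt3 and Slamf1, from 81.8 to 0.0311 FPKM. There the values of Fcgr3 and Fcgr2b, of Cd48 and Procr, and of Procr and Flt3 overlapped. The Fcγ receptor genes, Kit and Cd93 were the 4 markers with a mean above 2.18 FPKM, the Ly6a level, in APL cells.

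The genes that accompany these antigens in normal progenitors were read next, from lists chosen with earlier results of these data known. All 14 stem cell genes tested were lower in APL cells, with a median log2 fold change of −5.89, or −5.09 with the 5 genes at the floor in APL cells set to their bounds. Meis1, a homeobox factor of stem cells, had 7.37, 8.61 and 9.85 FPKM in MPs and 0.0273, 0.0700 and 0.0416 FPKM in APL cells. Angpt1, which encodes angiopoietin 1, was lower by −6.80 and Cd27, a surface receptor of early progenitors, by −6.58. For Hoxa9 the mean in MPs was 73.0 times the floor, its 3 APL libraries being at or under that floor. Of 12 megakaryocyte and erythroid genes, 11 were lower and 1 was not called (median −7.35). The erythroid factor Klf1 had 86.0, 93.6 and 107 FPKM in MPs and 0.400, 0.510 and 0.521 FPKM in APL cells. Gata1 (−7.40), its cofactor Zfpm1 (−7.62) and Epor, the erythropoietin receptor (−6.93), showed changes of similar size, as did the erythroid genes Car1 (−8.08), Aqp1 (−8.03) and Car2 (−7.64).

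Granulocytic genes were largely higher. Of 10 tested, 7 were higher, 1 was lower and 2 were not called in APL cells (median log2 fold change 1.28). The primary granule protease gene Ctsg rose by 2.55 and Elane by 1.78, the peroxidase gene Mpo by 1.22, and the transcription factor genes Gfi1 by 1.65 and Cebpa by 1.34. Fcnb, which encodes a ficolin, was lower (−3.06). Monocytic genes were divided, with 4 lower, 3 higher and 1 not called of 8 (median −0.85). Irf8, a transcription factor of monocytic and dendritic commitment, had 43.2, 35.4 and 44.0 FPKM in MPs and 1.21, 1.58 and 1.27 FPKM in APL cells. Ly86 (−4.74), the chemokine receptor gene Cx3cr1 (−2.82) and Csf1r, the receptor for macrophage colony-stimulating factor (−1.81), were lower too, whereas Ly6c2 was among the 3 that rose.

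**Figure D4:**
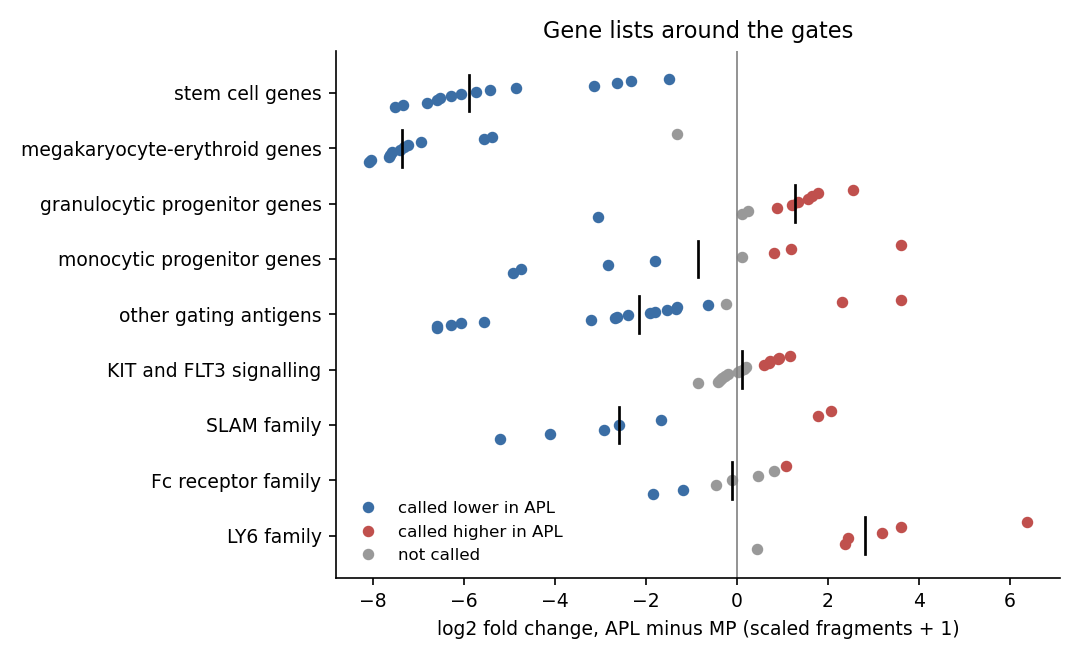
Log2 fold change, APL minus MP, of each tested gene in 9 lists around the gates, coloured by call (blue lower, red higher, grey not called), with a black bar at the list median; vertical offsets within a list only separate points. Every stem cell gene lies below 0 and 7 of 10 granulocytic progenitor genes are called higher.

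Of 18 other antigens used in progenitor gating, 15 were lower, 2 higher and 1 not called. Eng, which encodes CD105 and divides erythroid from granulocytic progenitors, had 25.7, 27.7 and 31.4 FPKM in MPs and 0.250, 0.273 and 0.340 FPKM in APL cells (−6.58). Itga2b, which encodes CD41 of megakaryocyte progenitors, was lower by −5.56. For Tek, the angiopoietin receptor, the mean in MPs was 48.9 times the floor in APL cells. Ly6c2 and Prom1, which encodes CD133, were the higher ones (3.61 and 2.31). Of the lineage antigens that the MP sort depleted, 6 were tested and 4 were lower and 2 higher in APL cells. With FPKM and a pseudocount of 0.1, or a filter of at least 10 scaled fragments in 3 libraries, 2 were lower. A filter of at least 1 in all 6 libraries also left 2 lower. Without APL library 2, 1 was higher. Itgam, which encodes CD11b, was present in both groups, at 23.3, 14.3 and 18.7 FPKM in MPs and 38.4, 37.3 and 35.4 FPKM in APL cells, while Cd3e of T cells was listed at 0 in all 3 MP libraries. Cd4 was lower (−6.18). Since the APL sort did not use this panel, these values describe the gates.

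Cd34, Procr and Ly6a are also endothelial genes. Of 7 endothelial markers tested, 6 were lower and 1 was not called, and their sum was 53.7, 53.5 and 69.0 FPKM in MPs and 7.83, 9.75 and 9.53 FPKM in APL cells. Cdh5, which defines endothelium, stayed under 0.1 FPKM in all 6 libraries, and the most abundant marker was Egfl7 (−2.78), which progenitors also express. B cell markers summed to 14.5, 14.5 and 16.1 FPKM in MPs and 257, 297 and 260 FPKM in APL cells, nearly all from Igll1, a surrogate light chain gene, at 250, 288 and 253 FPKM in APL cells (8.13). Of 6 B cell markers tested, 2 were higher (Igll1 and Vpreb1, 3.35) and 3 lower, among them Cd79b, a chain of the B cell receptor complex, at 12.8, 11.9 and 14.3 FPKM in MPs and 0.131, 0.351 and 0.262 FPKM in APL cells (−5.62). Of 6 eosinophil markers, 4 were lower, 1 was higher and 1 was not called, with Prg2 of the granule at −2.50. Late erythroid markers (3 of 4 lower) and megakaryocyte markers (4 of 6 lower) had none higher, with the globin gene Hba-a1 at −2.87 and the platelet factor gene Pf4 at −5.37. Of 5 stromal markers 3 were lower and 2 higher, the most abundant, Pdgfrb, being lower (−1.01), and of 3 T and NK cell markers 1 was lower, with Nkg7, a granule gene of cytotoxic cells, at 259, 245 and 231 FPKM in MPs and 240, 265 and 254 FPKM in APL cells. The MPs had been sorted as lineage negative and c-Kit positive, and the APL cells as GFP positive and c-Kit positive. The part of these other cell types in the levels of the sorting markers was not tested.

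Among the normal MPs, library 3 held the highest value of 6 of the 10 sorting markers, a share near the 55.1% of all genes tested. Its level relative to the mean of MP libraries 1 and 2 was 1.64 for Procr, 1.502 for Flt3, 1.31 for Cd34, 1.297 for Slamf1, 1.27 for Ly6a and 1.16 for Cd48, and it was 1.05 for Fcgr2b, 0.995 for Kit, 0.983 for Fcgr3 and 0.893 for Cd93. All 14 stem cell genes were highest in that library, against 2 of 10 granulocytic progenitor genes and 1 of 7 genes of the Fc receptor family. Without it, all 9 called markers kept their call, with Procr at −1.16 (adjusted p = 0.029).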

How the data were processed

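RNA-seq libraries of 3 normal MP and 3 c-Kit+ APL samples were analysed from 1 deposited table. The authors deposited FPKM values and a signal column per library, estimated fragments per gene scaled between libraries. The submitters' processing notes name mm10, CASAVA 1.8 and TopHat2 2.0.6, whereas the study's methods name Cutadapt, STAR with mm9 and HTSeq-count. The tool that made the estimates is not given in the sources used here. Of 16357 gene IDs found in RefSeq GRCm38, 99.6% overlapped their RefSeq position. Values under 100 fragments were whole multiples of a library step (tolerance 0.01) for 87.3 to 88.4% of genes, so they were not treated as counts, and the DESeq2 test of the study's methods was not used. The step gave the unscaled totals.

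Genes with at least 1 scaled fragment in at least 3 of the 6 libraries (14595) were tested with limma 3.58.1 in R 4.3.3 on log2(scaled fragments + 1), with a trended prior and no covariate. Genes at low values have understated fold changes on that scale. In data simulated for this comparison over 14389 genes, 97 of 100 changes of log2 size 1 and 100 of 100 of size 2 were recovered, with 7 false calls. Recovery and false calls were not tested separately for genes with levels as low and scattered as those of Ly6a and Procr. Positions are those of the table. Exons and shared windows came from NCBIM37 with GENCODE vM1, 1 transcript a gene.

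The text names all 10 markers and draws its other genes from a rule: from each list, up to 4 called genes with the largest change and a mean of at least 1 FPKM in the higher group, the most abundant gene for lists of other cell types, and genes that define a gate. Not every gene the rule allows is named. Outside that rule, Prom1, Cd3e, Cdh5, C1qa, Fcgr4 and Ly6e were named after their values were seen. The markers and lists were chosen with earlier results of these data known. Alternatives covered filters, pseudocounts, unit, scaling, variance model, a replicate block, leaving out each library, thresholds and chromosome medians. Cd8a, Cd2, Ly6h and Pax5 were not analysed here, and some listed genes are not reported here by name.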

Additional observations from a re-analysis of the deposited data

How the results depend on the processing

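Across the alternatives, 5 or 6 sorting markers were called lower in APL cells and 2 or 3 higher, while 2427 to 4273 of all genes tested were called lower and 2171 to 3567 higher. Kit, Cd34, Flt3, Fcgr3, Fcgr2b, Slamf1, Cd48 and Procr kept their direction and call in all 19 alternatives of their log2 fold change, with ranges of −0.98 to −0.65 for Kit, −6.44 to −6.18 for Cd34, −5.95 to −5.45 for Flt3, 1.76 to 2.00 for Fcgr3, 1.28 to 1.49 for Fcgr2b, −6.67 to −4.89 for Slamf1 (fitted values of a gene at the floor in APL cells), −6.25 to −5.77 for Cd48 and −1.70 to −0.89 for Procr. With a threshold of 2-fold in place of 1.5-fold, Kit and Ly6a were no longer called. Ly6a ranged from 0.22 to 1.21 and lost its call in 8 alternatives, among them no filter (adjusted p = 0.056), a pseudocount of 8 (0.56), equal totals (0.56, adjusted p = 0.067) and the subtraction of the chromosome median (0.22). Cd93 was called in none of them, and its sign turned with median ratio scaling (0.0385) and with subtraction of its chromosome's median (0.15), and ran from −0.0847 to 0.0225 when single libraries were left out. With equal library totals, the genes tested had a median log2 fold change of −0.23 in place of −0.10, and each gene's value under that scaling includes this shift. Library numbers did not pair the samples: over 11554 genes, the deviations of MP and APL libraries with the same number correlated at 0.139, −0.000309 and 0.127, and APL library 1 correlated best with MP library 2. With the replicate block, 6 markers were lower and 3 higher, and 3589 genes were lower and 3164 higher. Of 756 recomputed list counts, 42 moved by more than 1.5 times, most in lists of cell types at low levels, such as the macrophage markers called lower (0 or 1 in place of 2). Slamf1, Tek and Hoxa9 were at the floor in APL cells, so the size of their folds is uncertain.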
